A study of Mus musculus with 8 samples.

Results

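Transcriptomes of Gpr65 knockout (KO) and wild-type (WT) mouse CD4+ T cells were compared after culture under Th17 conditions, in 50135 single cells of the 104660 in the series. These are the cells that the deposited cell table assigns to the Th17 condition and in which 500 or more genes were detected, a limit that removed 1248 of 51383 Th17 cells. The KO contributed 28337 cells and the WT 21798, each from 2 libraries. According to the labels, T cells were isolated from the spleens of female mice at an age of 10 weeks, the strain is given as GPR65, and cultures were harvested on day 3. Both genotypes received IL-6 at 25 ng/ml in the Th17 medium, together with 20 ng/ml of IL-1b and the same dose of IL-23. KO and WT Th22 libraries of the same design, with IL-6 at 40 ng/ml and the aryl hydrocarbon receptor ligand FICZ at 400 nM added to IL-1b and IL-23, gave 51553 further cells that entered the estimate of the spread and a test of the difference between conditions. Which part of Gpr65 was deleted, and in which cells, is not stated in the labels, and neither is whether the 2 libraries of a group came from separate mice or cultures. The p-values below therefore reflect only how far these libraries spread, and that spread may be technical.

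Gpr65 (also TDAG8) is a G protein-coupled receptor on lymphocytes and myeloid cells that is activated by extracellular protons. It couples to Gs, so that acidic surroundings raise cyclic AMP, which activates protein kinase A and the transcription factor CREB. Th17 cells are helper T cells directed by STAT3 together with lineage-specific transcription factors. They secrete IL-17A and IL-17F, cytokines that act on epithelium and recruit neutrophils.

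The Th17 libraries held 9969 to 14262 kept cells and 33826527 to 42196399 unique molecular identifiers (UMIs, one per captured transcript). WT library 2 was deeper per cell, with a median of 3847 UMIs against 2354 to 2489 in the others. KO library 1 stood apart in the cell cycle. Of its cells, 52.7% had both deposited phase scores at or below 0, against 65.0% to 66.7% in the other libraries. The median mitochondrial percent was 1.87 to 2.18, and 249 of 49886 distinct barcodes occurred in more than 1 Th17 library. Of the markers that define CD4 T cells, Cd3e was at 216 to 318 and Cd4 at 89.6 to 125 CPM (UMI counts scaled to the same library total), while Jchain, Trdv4, Col1a2 and Vwf were at 0 in all 4 libraries and Cd8a reached at most 1.52 CPM. Other markers were detected: Cd8b1 at 10.05 to 13.3 CPM, Trdc at 7.60 to 15.8 and Dcn at 4.60 to 6.42. Cd68 was at 17.7 to 27.4 and Cst3 at 117 to 138 CPM. Of the B and plasma cell markers, Ighm was at 26.9 to 43.8 and Ebf1 at 16.4 to 26.0 CPM. Myeloid and dendritic markers summed to 173 and 157 CPM in KO libraries 1 and 2 and to 173 and 156 CPM in the WT, CD8 markers to 13.5 and 13.98 against 12.2 and 11.6, and stromal markers to 5.54 and 4.995 against 6.504 and 5.10. The summed B and plasma cell markers were 45.0 and 58.0 CPM in KO libraries 1 and 2 and 65.0 and 58.0 CPM in WT libraries 1 and 2, and the gamma-delta markers were 27.1 and 12.7 against 13.2 and 17.3 CPM.

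Gpr65 itself, on chromosome 12 from 98268635 to 98276644 in mm10, was measured at 1.58 and 1.55 CPM in KO libraries 1 and 2 and at 72.9 and 72.0 CPM in WT libraries 1 and 2. The transcript was 46.2-fold lower in the KO (log2 fold change of KO over WT -5.53 ± 0.13, SE; adjusted p = 2.5e-06, edgeR), and all 4 libraries matched their genotype label. All such library values below are CPM after TMM scaling, in the same order, and fold changes are KO over WT.

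Agreement of the libraries was examined first, over the 6319 genes that averaged 10 CPM or more. The log2 ratio of KO library 1 over WT library 1 correlated weakly across genes with that of KO library 2 over WT library 2 (Pearson r = 0.18). The ratios with the numbers crossed, KO 1 over WT 2 and KO 2 over WT 1, correlated at r = 0.58. These correlations are across genes of pairs of libraries that also differ in depth and cell cycle, and genes are not independent replicates. The log2 ratio between the 2 KO libraries had an SD of 0.315 over genes, as wide as the 4 KO over WT ratios (0.285 to 0.382), whereas that between the 2 WT libraries had an SD of 0.190. Of the 60 genes that differed by more than 1 log2 unit between KO 1 and WT 1, 33 (55.0%) had the same sign and a ratio over 0.5 between KO 2 and WT 2. In the reverse direction this held for 41 of 116 genes (35.3%). With crossed pairs it held for 37 of 47 (78.7%) and 42 of 55 (76.4%).

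**Figure D1:**
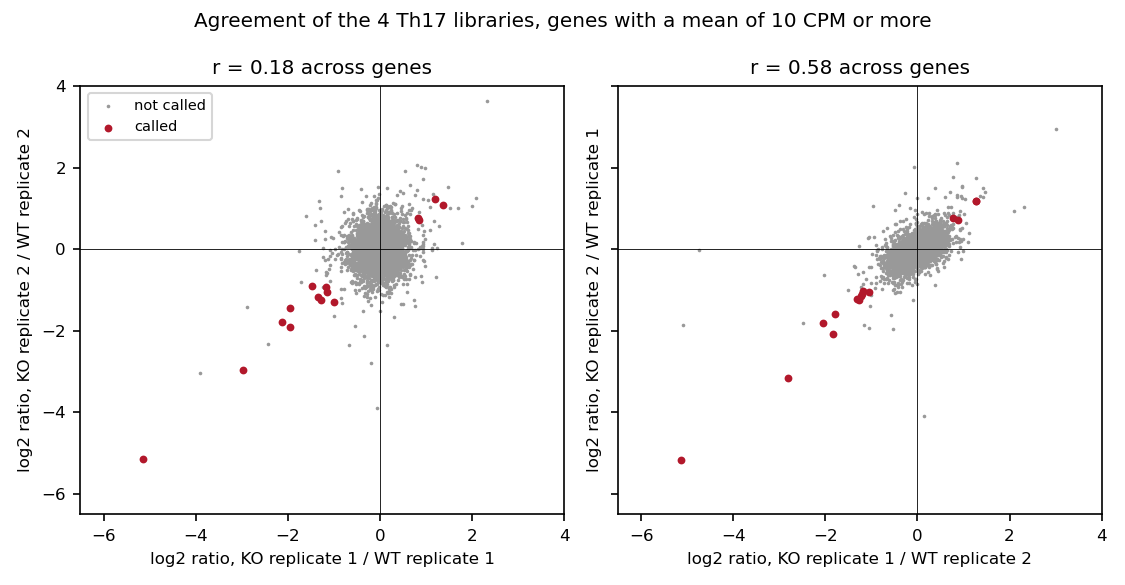
Each point is a gene that averaged 10 CPM or more, placed by the log2 ratio of 1 KO over 1 WT Th17 library (x axis) and of the other KO over the other WT library (y axis), for same-numbered libraries on the left and crossed numbers on the right. The cloud is round on the left (r = 0.18) and stretched along the diagonal on the right (r = 0.58); marked points are genes called between KO and WT.

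The KO libraries differed from each other by more than 1 log2 unit in 55 genes, the WT libraries in 5. Among the genes that separated the KO libraries were Aldoc, a glycolytic aldolase, at 23.1 and 78.3 CPM, and P4ha2, a prolyl hydroxylase subunit induced in hypoxia, at 5.92 and 23.5 CPM. The WT levels lay between those of the KO libraries for Aldoc (57.8 and 39.0 CPM) and for P4ha2 (10.8 and 8.02 CPM). The MHC class II gene H2-Ab1 was at 16.0 and 56.6 CPM in the KO and at 29.0 and 22.6 CPM in the WT. Glycolysis transcripts summed to 6612 and 9889 CPM in the KO and to 7883 and 6734 CPM in the WT, so that the groups overlapped.

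Against this spread, 25 of 13412 genes tested passed the threshold (0.186%; edgeR quasi-likelihood test on counts summed per library, adjusted p under 0.05), 7 higher (0.0522%) and 18 lower (0.134%) in the KO. At an unadjusted p under 0.05, 805 genes were higher (6.0%) and 827 lower (6.17%). Both KO libraries lay above both WT libraries in 2797 genes (20.9%) and below them in 2908 (21.7%). All 25 called genes had no overlap between KO and WT libraries. They were called between these same libraries, so this is not an independent check. Of the 25, 15 had a mean of at least 10 CPM and 2 were gene models without a name. The count depended on single libraries: it was 8 and 13 without KO Th17 library 1 or 2, 4 and 3 without WT Th17 library 1 or 2, 51 and 54 without KO Th22 library 1 or 2, and 6 without either WT Th22 library. All 25 kept their sign in each of these, and Gpr65, Ifitm1 and Ifitm3 remained called in all 21 alternatives tried. A covariate for depth per cell left 4 calls.

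**Figure D2:**
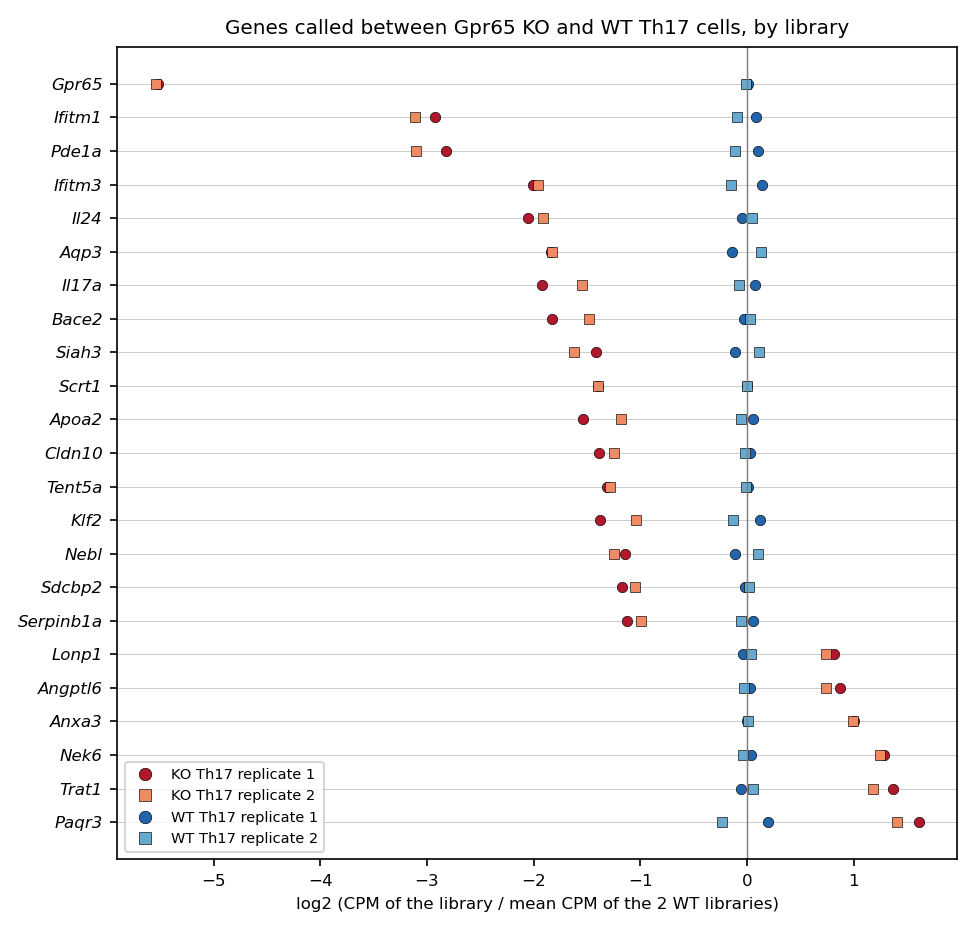
Levels of the 23 named genes called between KO and WT, as the log2 ratio of each Th17 library's CPM to the mean of the WT libraries (x axis), with 1 point for each of the 4 libraries. In each gene both KO points lie on one side of both WT points, and the genes were called between these same libraries. Of the genes, 17 are lower and 6 higher in the KO.

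Transcripts of 2 of the 6 Th17 signature cytokines tested, Il17a and Il24, fell in the KO. Il17a, on chromosome 1 from 20730905 to 20734496, was at 10.02 and 12.98 CPM in the KO and at 39.9 and 36.1 CPM in the WT. Both KO libraries lay below both WT libraries, and the level was 3.31-fold lower (log2 fold change -1.72 ± 0.17, SE; adjusted p = 0.017, edgeR). Il17a lost its call without KO Th17 library 1 (adjusted p = 0.091), without WT Th17 library 1 (0.218) or 2 (0.191) and without WT Th22 library 1 (0.059) or 2 (0.055), as well as with the replicate number as a block (0.088) and with a covariate for depth per cell (0.054), with log2 fold changes of -1.92 to -1.55 over all alternatives. Il17f, its neighbour on the same chromosome from 20777146 to 20790617, was at 6.77 and 14.8 CPM against 52.9 and 40.5 CPM. Its log2 fold change was -2.12 ± 0.40 and did not pass (adjusted p = 0.115). Both KO libraries lay below both WT libraries, with a wide gap between the KO libraries. Il24, an IL-10 family cytokine that acts on epithelial cells, fell from 43.5 and 46.6 CPM in the WT to 10.9 and 11.9 CPM in the KO (log2 fold change -1.98 ± 0.13, adjusted p = 0.0019), a call lost only without WT Th17 library 2 (adjusted p = 0.058). Il22, another IL-10 family cytokine, was at 8.11 and 11.5 against 10.8 and 10.0 CPM, with overlapping groups and a log2 fold change of -0.09 (adjusted p = 0.94).

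Because Il17a and Il17f lie side by side and are both regulated in Th17 cells, their promoters were searched on both strands for TGACG, the core letters of the cyclic AMP response element bound by CREB. The 250 bases before each RefSeq start (GRCm38.p6) are printed 5′ to 3′ on the gene's own strand, with TGACG or its reverse complement CGTCA in capitals.
Il17a, chr1:20730655-20730904, plus strand: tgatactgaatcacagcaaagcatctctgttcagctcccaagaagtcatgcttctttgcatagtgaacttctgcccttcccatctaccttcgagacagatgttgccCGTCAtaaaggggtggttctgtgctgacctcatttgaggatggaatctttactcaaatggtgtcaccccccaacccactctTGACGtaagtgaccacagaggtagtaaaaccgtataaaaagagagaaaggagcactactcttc
Il17f, chr1:20784271-20784520, minus strand: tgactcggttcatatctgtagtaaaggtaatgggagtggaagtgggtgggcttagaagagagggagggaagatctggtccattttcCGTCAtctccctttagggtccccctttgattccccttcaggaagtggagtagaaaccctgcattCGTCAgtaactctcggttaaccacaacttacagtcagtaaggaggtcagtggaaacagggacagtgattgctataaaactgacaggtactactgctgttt
Each promoter held 2 matches, at 63 to 59 and 144 to 140 bases before the start in Il17a and at 100 to 96 and 164 to 160 in Il17f. The printed Il17f bases lie inside the gene span given above, so bases before that span were not searched. Of 32851 RefSeq promoters of the same length, 5836 (17.8%) held TGACG at least once. A match describes these letters only; binding was not measured.

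The Ifitm genes encode small membrane proteins, induced by interferon, that hinder the entry of enveloped viruses. Ifitm1, on chromosome 7 from 140967221 to 140969825, was at 17.8 and 15.6 CPM in the KO and at 144 and 127 CPM in the WT. Among the called genes only Gpr65 fell further. The fall of Ifitm1 was 8.09-fold (log2 fold change -3.02 ± 0.15, adjusted p = 0.00037). Ifitm3, from 141009586 to 141010770 on the same chromosome, fell from 94.0 and 76.6 to 21.2 and 21.9 CPM (log2 fold change -1.99 ± 0.13, adjusted p = 0.0019). Ifitm2 was at 147 and 161 against 261 and 203 CPM (log2 fold change -0.59, adjusted p = 0.18). Of 5 family members tested, 2 were lower after adjustment and 4 had both KO libraries below both WT libraries. Reads of these similar genes may be shared among them, and how the authors' counting treated such reads is not stated. The list of other interferon-stimulated genes held no called member: of 39 tested, none passed, 4 were higher and 2 lower at an unadjusted p under 0.05, and the median log2 fold change was 0.13. The 250 bases before the RefSeq starts of Ifitm1 and Ifitm3 held no match to GAAANNGAA, the core letters of the interferon response element. Those of Ifitm2 held 1, against 2342 of 32851 promoters (7.13%). For Ifitm1 these bases, 140967826 to 140968075, lie inside the gene span given above, so bases before that span were not searched.

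Other genes that fell were Klf2, a transcription factor of quiescent T cells that maintains homing receptors, at 21.8 and 27.6 against 61.7 and 51.7 CPM (log2 fold change -1.20 ± 0.14, adjusted p = 0.037), and Serpinb1a, an inhibitor of neutrophil-type serine proteases, at 44.4 and 48.4 against 100.4 and 92.9 CPM (-1.06 ± 0.10, adjusted p = 0.0097). Tent5a, a poly(A) polymerase, was at 13.2 and 13.4 against 32.8 and 32.4 CPM (-1.30 ± 0.10, adjusted p = 0.0042). Its libraries agreed closely, the 4 KO over WT log2 ratios spanning 0.042. Pde1a, a calcium-dependent phosphodiesterase that degrades cyclic nucleotides, was at 0.680 and 0.560 against 5.18 and 4.44 CPM (-2.95 ± 0.25, adjusted p = 0.0068). Sdcbp2 (-1.11), Nebl (-1.19), the claudin Cldn10 (-1.31), Apoa2 (-1.35), Scrt1 (-1.40), Siah3 (-1.51), the secretase Bace2 (-1.64) and the water and glycerol channel Aqp3 (-1.83) also fell. Of these 8, only Sdcbp2, Nebl and Cldn10 reached 10 CPM on average, and the remaining 5 lay under that level.

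The named genes that rose were 6, with log2 fold changes of 0.78 to 1.52. Trat1, an adaptor associated with the T cell receptor, rose from 7.19 and 7.75 to 19.3 and 16.97 CPM (log2 fold change 1.28 ± 0.15, adjusted p = 0.038). The mitotic kinase Nek6 rose from 10.0 and 9.54 to 23.8 and 23.2 CPM (1.26 ± 0.14, adjusted p = 0.026). Lonp1, the protease of the mitochondrial matrix, rose from 38.6 and 40.4 to 69.6 and 66.1 CPM (0.78 ± 0.10, adjusted p = 0.042). Angptl6 (0.81), the annexin Anxa3 (0.996) and Paqr3 (1.52) completed the set. Anxa3 and Paqr3 are near neighbours on chromosome 5, starting at 96793339 and 97082329.

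Sums over cells do not tell fewer expressing cells from less RNA per cell, so each cell was thinned to 1500 UMIs and the share of cells with a UMI was counted. This left out 1783 and 2055 shallower KO cells and 1488 and 273 WT cells. Il17a UMIs were found in 0.713% and 0.757% of KO cells and in 2.24% and 1.57% of WT cells (unthinned 0.869% and 1.07% against 3.13% and 3.03%). Among those cells the mean was 2.16 and 1.97 UMIs in the KO and 2.21 and 2.42 in the WT. Ifitm1 UMIs were found in 1.52% and 1.20% against 9.55% and 8.70% of cells (unthinned 2.13% and 1.71% against 13.5% and 15.5%), with 1.87 and 2.06 against 2.37 and 2.15 UMIs per positive cell. Il24 UMIs were found in 1.26% and 1.30% against 3.65% and 3.74% (unthinned 1.99% and 2.11% against 5.80% and 7.96%), with 1.17 and 1.22 against 1.38 and 1.41 UMIs per positive cell. For these 3 genes both KO shares lay below both WT shares, and the same held for UMIs per positive cell. Without thinning these were 3.33 and 3.40 against 3.79 and 5.01 for Il17a. They were 2.41 and 2.56 against 3.15 and 3.44 for Ifitm1, and 1.58 in both KO libraries against 2.23 and 2.46 for Il24. WT library 2 was the deepest per cell, and unthinned values are not corrected for depth.

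Il22 UMIs were found in 0.593% and 0.807% of KO and in 0.542% and 0.547% of WT cells. The 95% intervals were 0.466% to 0.744% and 0.655% to 0.984% in the KO. In the WT they were 0.409% to 0.703% and 0.410% to 0.714%, so that KO and WT intervals overlapped. They cover counting error within a library only, and a difference in share between genotypes was not tested. The CPM of the groups overlapped as well. Klf2 UMIs were found in 3.35% and 4.03% against 9.35% and 8.34% of cells. For the genes that rose, shares were 2.61% and 2.27% against 0.861% and 0.856% for Trat1 and 10.1% and 9.04% against 5.03% and 4.63% for Lonp1. Gpr65 UMIs were found in 0.313% and 0.275% of KO cells, against 9.77% and 9.26% of WT cells. Free RNA in droplets can add single UMIs, and no cell class known to lack the cytokine genes was at hand to measure it.

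**Figure D3:**
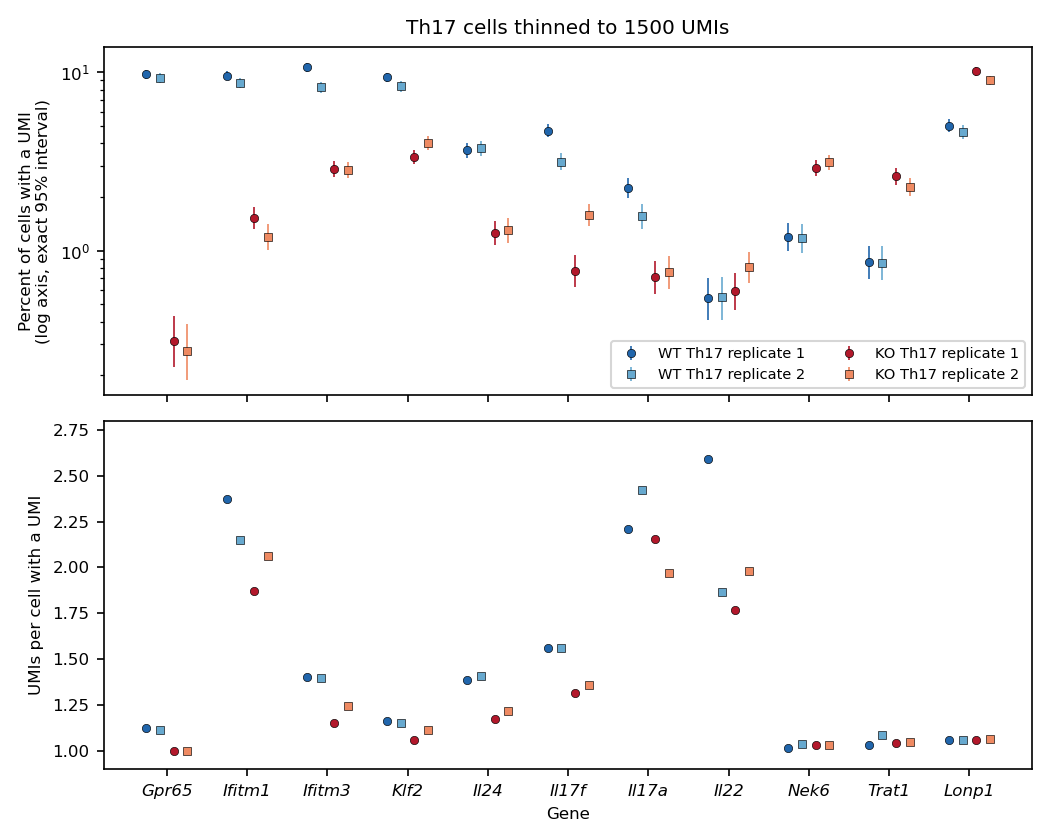
Share of cells with at least 1 UMI after thinning to 1500 UMIs per cell (upper panel, percent, log axis) and mean UMIs among those cells (lower panel), with 1 point per Th17 library and exact binomial 95% intervals on the shares that cover counting error only. Il17a, Il24, Ifitm1 and Klf2 have lower shares in both KO libraries and Trat1 and Lonp1 higher ones. The thinned UMIs per positive cell lie closer together, and for Il17a, Il24, Ifitm1 and Klf2 they too are lower in both KO libraries.

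Lineage regulators of the Th17 program showed no called difference. Of 15 transcription factors tested none passed, 1 was higher and 2 lower at an unadjusted p under 0.05, and the median log2 fold change was -0.05. Rora had a log2 fold change of -0.16 and Stat3 of -0.15. Hif1a, an oxygen-regulated transcription factor, was at 434 and 435 against 604 and 564 CPM, with no overlap and a log2 fold change of -0.43 (adjusted p = 0.16). Of 12 Th17 receptors and surface genes 1 fell, Aqp3, and 7 were lower at an unadjusted p under 0.05. Among those 7 were the membrane protein Tmem176a (-0.998), the co-stimulatory receptor Icos (-0.64) and the leukotriene receptor Ltb4r1 (-0.92, at 11.1 and 19.3 against 29.7 and 28.0 CPM). The receptors Il23r (0.39), Ccr6 (0.63) and Il1r1 (-1.14) did not pass.

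Several single genes of inflammatory and Th1 cells were higher in both KO libraries without passing, while their lists were mixed. Of 17 Th1 genes 5 had both KO libraries above and 5 below both WT libraries, with a median log2 fold change of -0.04 and sums of 526 and 548 against 566 and 642 CPM. Of 17 pathogenic Th17 genes 7 were above and 6 below in this way, and 1 fell. Spp1, encoding the secreted phosphoprotein osteopontin, was at 29.0 and 45.0 against 5.43 and 3.17 CPM (log2 fold change 3.11 ± 0.48, adjusted p = 0.076). Nkg7, a cytotoxic granule protein, was at 58.9 and 70.7 against 20.9 and 24.2 CPM (1.52, adjusted p = 0.057). Tbx21, the Th1 regulator T-bet, was at 4.56 and 5.42 against 1.51 and 2.84 CPM (1.19, adjusted p = 0.22). Lgals3, a galectin, was at 167 and 224 against 95.1 and 81.2 CPM (1.15, adjusted p = 0.076). Of 7 chemokines and related ligands none passed, 6 had both KO libraries above both WT libraries, and the median log2 fold change was 1.44. Ccl3 and Ccl4, which attract leukocytes, had log2 fold changes of 1.77 and 1.62. No Th1 gene passed, and 4 were higher and 3 lower at an unadjusted p under 0.05. Ifng (0.90, adjusted p = 0.71) and Csf2 (0.58, adjusted p = 0.76) did not pass, and Csf2 overlapped between the groups, at 0.777 and 1.91 against 0.910 and 0.883 CPM. Il10 stayed under the filter on low counts, at 0 to 0.148 CPM.

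Among genes of resting T cells, 1 of 20 tested fell, Klf2, 8 were lower at an unadjusted p under 0.05 and none higher, and 12 had both KO libraries below both WT libraries. The median log2 fold change was -0.42, against -0.002 over all genes. Tcf7, the stemness factor TCF-1, was at 93.0 and 89.1 against 144 and 156 CPM (-0.72, adjusted p = 0.086). The chromatin organizer Satb1 was at 323 and 322 against 463 and 502 CPM (-0.58, adjusted p = 0.086), and Lef1 had a log2 fold change of -0.49 (adjusted p = 0.11). Markers of CD4 T cells lay in the same direction, with 6 of 9 lower at an unadjusted p under 0.05 and sums of 3786 and 3888 against 4481 and 4433 CPM; their part in these differences was not tested. Of 29 cytokine receptors none passed and 7 were lower at an unadjusted p under 0.05. Among them were Il10ra (-1.05), the IL-6 signal transducer Il6st (-0.48) and the IL-7 receptor Il7r (-1.19), the last at 63.2 and 34.8 against 92.7 and 130.2 CPM. Of 21 integrins and adhesion genes none passed and 6 were lower at an unadjusted p under 0.05, including Pecam1 (-0.91) and the adhesion ligand Selplg (-0.43).

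In the pathway of the receptor itself, of 14 proton-sensing receptors and G protein genes only Gpr65 fell. Both KO libraries lay below both WT libraries in 7 of the 14, Gpr65 included, and above them in none, and 12 were lower by sign. The related receptor Gpr132 had a log2 fold change of -0.28, and the G protein genes Gna12 and Gnb2 of -0.62 and -0.31. Of 27 cyclic AMP and CREB response genes none passed, 1 was lower at an unadjusted p under 0.05, and the median was -0.10. Nr4a1, an early target of both CREB and the T cell receptor, was at 21.9 and 28.4 against 38.1 and 35.8 CPM (-0.56, adjusted p = 0.41). Of 15 acid and lactate export genes none passed, with 1 higher and 1 lower at an unadjusted p under 0.05. Of 16 subunits of the V-ATPase, the proton pump of lysosomes, none passed, and 7 had both KO libraries above both WT libraries and 1 below. Of 29 lysosome genes none passed, 7 were above and 6 below in the same way, and the median was 0.02.

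Lists of stress and protein turnover were examined next. Autophagy genes were mixed (20 tested, 9 higher and 11 lower by sign, median -0.03), and none passed. Both KO libraries lay above both WT libraries in 1 of them and below in 5, against 20.9% and 21.7% of all genes. Of 17 heat shock genes 15 were higher and 2 lower by sign. Of 22 endoplasmic reticulum chaperone genes 17 were higher and 5 lower, and no member of either list passed. Of 30 genes of the ATF4 amino acid response, which supplies amino acids and their transporters under starvation, none passed, 13 were higher at an unadjusted p under 0.05 and none lower. Both KO libraries exceeded both WT libraries in 23 of them, and the median log2 fold change was 0.34. Their sums were 3423 and 3139 against 2731 and 2638 CPM. Nupr1, a stress-induced chromatin protein, was at 174 and 130 against 53.03 and 64.7 CPM (1.37, adjusted p = 0.079), and Cth, which makes cysteine, at 12.96 and 16.6 against 7.85 and 7.99 CPM (0.90, adjusted p = 0.11). The arginine transporter Slc7a3 (0.78, adjusted p = 0.086) and the secreted Stc2 (1.19, adjusted p = 0.13) followed. Leaving out any 1 Th17 library gave 10 to 15 members at an unadjusted p under 0.05.

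Of 21 mitochondrial protein quality genes 1 rose, Lonp1, and 13 had both KO libraries above both WT libraries and none below, with sums of 2538 and 2599 against 2194 and 2109 CPM. Of 27 proteasome subunits none passed, 8 were higher at an unadjusted p under 0.05, and 22 had both KO libraries above both WT libraries. Psmc2, an ATPase of the proteasome cap, was at 114.7 and 104.9 against 79.5 and 82.5 CPM (0.44, adjusted p = 0.19). The 8 became 3 and 6 without KO library 1 or 2 and 4 and 1 without WT library 1 or 2, and the median of the list was 0.18. Nuclear respiratory chain genes (53 tested, median 0.04) and glycolysis genes (21 tested, median 0.07) had none that passed. In all, 50 of 59 lists had no member that passed over all cells.

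Cell cycle and growth lists had no called member and depended on single KO libraries. S phase genes summed to 1259 and 994 CPM in the KO and to 1005 and 935 CPM in the WT, so that only KO library 1, the library with fewest cells at low phase scores, stood above the others. Of 50 S phase genes 46 were higher by sign, and both KO libraries lay above both WT libraries in 16 and below them in 1. At an unadjusted p under 0.05, 3 were higher, a count of 14 without KO library 2 and of 2 without KO library 1. Ribosome biogenesis and Myc target genes were higher by sign in 31 of 33, with sums of 5432 and 6015 against 5115 and 4895 CPM and 10 members above and none below in both KO libraries. They had a median of 0.31 that was 0.52 without KO library 1 and 0.07 without KO library 2.

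**Figure D4:**
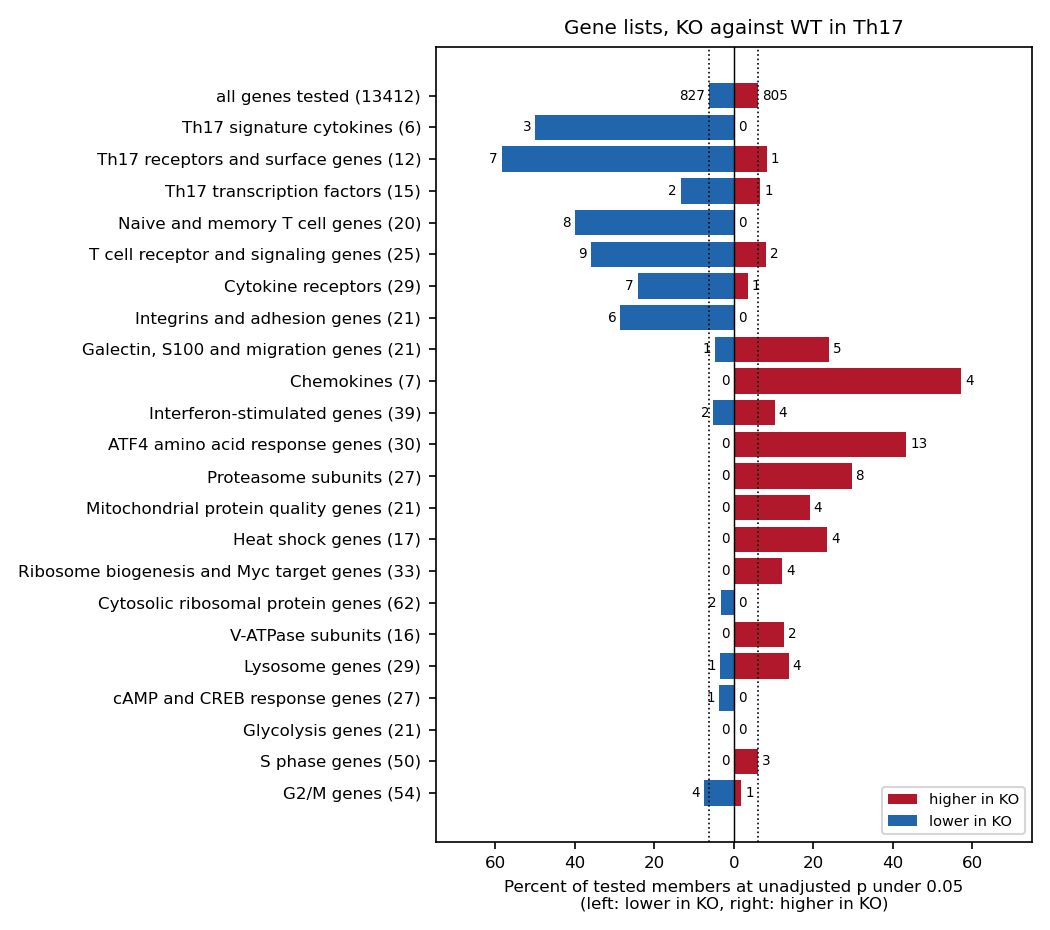
Percent of the tested members of each gene list at an unadjusted p under 0.05 (x axis), lower in the KO to the left in blue and higher to the right in red, with the number of members beside each bar and the number tested in brackets. Dotted lines mark the 6.17% and 6.0% of all genes; resting T cell genes (8 of 20) and Th17 receptors (7 of 12) reach to the left, ATF4 response genes (13 of 30) and chemokines (4 of 7) to the right.

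The deposited table divides the cells into clusters, and KO was compared with WT within the 10 clusters that held at least 50 cells in each library. Cluster 1 carried most calls, 247 of 11386 genes (2.17%), 98 higher and 149 lower. Its 14831 Th17 cells are led by activation genes such as Ccl4, Rgs16, Spp1 and Nr4a1. Cluster 2, led by the Th17 cytokines Il17a, Il17f, Il22 and Il24 with Ifitm1 and Ifitm3, had 75 of 10509 (0.714%), 26 higher and 49 lower. The rest had few: 4 of 11835 in cluster 0 (0.0338%), 16 of 9785 in cluster 3 (0.164%), 14 of 7828 in cluster 4 (0.179%), 4 of 6661 in cluster 5 (0.0601%), 3 of 7375 in cluster 6 (0.0407%), 7 of 7685 in cluster 7 (0.0911%), 6 of 6561 in cluster 8 (0.0914%) and 1 of 2199 in cluster 9 (0.0455%). Cluster 0 held more cells than cluster 1, 19244, and fewer calls. Each cluster was fitted and adjusted on its own, so these counts do not measure the size of the effect. Sdcbp2 had a log2 fold change of -1.18 ± 0.14 in cluster 0 without passing (adjusted p = 0.053, edgeR). In cluster 1 it was called at -1.16 ± 0.15 (adjusted p = 0.0027, edgeR). Shares of cells per cluster are not compared between genotypes, because leading genes such as Ifitm1 and Il24 differed between them. Leading genes, the 10 with the highest ratio of CPM in the cluster to the remaining cells of the series, are not read as results in their cluster.

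Of the 247 calls in cluster 1, 59 were also called in cluster 2, which is 23.9% of the first list and 78.7% of the second, and all 59 had the same direction. All 247 had the same sign over all cells, where 23 of them passed and 224 did not. Cells of cluster 1 are part of all cells and come from the same libraries, so the shared sign is not an independent check. The cluster 1 count was 70 and 184 without KO Th17 library 1 or 2 and 32 and 24 without WT Th17 library 1 or 2, and the cluster 2 count was 28, 28, 12 and 9 in that order. In each of these fits the 247 genes that were called with all libraries kept their sign. The libraries kept in these fits had also given the calls, so this too is not an independent check.

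In cluster 1, of 30 ATF4 response genes 9 rose and none fell, and 20 were higher and 1 lower at an unadjusted p under 0.05. Nupr1 was at 163 and 134 against 37.1 and 47.4 CPM (log2 fold change 1.81 ± 0.18, adjusted p = 0.00093). Asparagine synthetase, Asns, was at 162 and 145 against 101.4 and 100.1 CPM (0.61 ± 0.10, adjusted p = 0.010). The cysteine enzyme Cth (1.14), Stc2 (1.23), Slc7a3 (0.86), the factor Atf5 (0.45), and the enzymes of serine and folate metabolism Psph (0.57), Phgdh (0.48) and Aldh1l2 (1.12) rose as well. The KO and WT libraries did not overlap in any of these 9, which were called between these same libraries. Over all 11386 genes tested in cluster 1, both KO libraries lay above both WT libraries in 2681 and below them in 2660.

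Resting T cell genes fell in the same cluster, 6 of 20 with none higher. Satb1 was at 281 and 314 against 463 and 508 CPM (-0.71 ± 0.10, adjusted p = 0.0044), and Tcf7 at 66.4 and 70.8 against 102.5 and 109.9 CPM (-0.63 ± 0.11, adjusted p = 0.016). Klf2 (-1.28), Lef1 (-0.50) and Btg2 (-0.59) also fell. Of 10 Th17 receptors and surface genes tested 4 fell: Ltb4r1 (-0.98), Aqp3 (-2.10), Tmem176a (-1.32) and the IL-6 receptor chain Il6ra (-0.60). Hif1a fell in cluster 1, from 622 and 578 to 379 and 435 CPM (-0.56 ± 0.10, adjusted p = 0.018), and in cluster 2, from 714 and 644 to 439 and 463 CPM (-0.59 ± 0.11, adjusted p = 0.025). Il17f passed in cluster 1, falling from 16.0 and 11.8 to 1.70 and 4.18 CPM (-2.20 ± 0.32, adjusted p = 0.0078). It passed in no other cluster, cluster 2 included, where it is a leading gene.

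Of 20 galectin, S100 and migration genes tested in cluster 1, 4 rose and 1 fell. S100a6, a calcium-binding protein, rose from 128 and 124 to 358 and 309 CPM (1.40 ± 0.11, adjusted p = 0.00013), and Lgals3 from 85.5 and 74.9 to 204 and 238 CPM (1.46 ± 0.15, adjusted p = 0.00093). Ecm1, a secreted matrix protein, fell from 157 and 137 to 43.8 and 65.2 CPM (-1.43 ± 0.16, adjusted p = 0.0026). Of 20 co-stimulatory and inhibitory receptors 1 rose and 3 fell, and of 19 integrins and adhesion genes none rose and 3 fell. The inhibitory receptor Ctla4 fell from 76.2 and 86.6 to 37.4 and 39.1 CPM (-1.09 ± 0.13, adjusted p = 0.0019). Tnfrsf18 (-0.61) and Icos (-0.78) fell with it, and Cd274, the ligand PD-L1, rose (0.79 ± 0.12, adjusted p = 0.0078). The Th1-associated cytokine Lta rose (1.43) and Runx3 fell (-0.68). Of 14 BCL2 family genes 2 rose and 1 fell: the survival genes Bcl2a1d (1.70) and Bcl2a1b (1.07) rose and the death-promoting Bcl2l11 fell (-1.18).

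Cyclic AMP and CREB response genes, of which none had passed over all cells, held 3 calls in cluster 1 beside Nr4a1, a leading gene of that cluster. Rgs1, which shortens G protein signals, rose from 60.3 and 72.4 to 134 and 124 CPM (0.96 ± 0.13, adjusted p = 0.0033). The AP-1 factor Fosl2 fell from 81.0 and 85.5 to 51.7 and 43.5 CPM (-0.81 ± 0.12, adjusted p = 0.0070). Pde4b, a phosphodiesterase that degrades cyclic AMP, fell from 22.4 and 27.9 to 14.5 and 12.4 CPM (-0.91 ± 0.19, adjusted p = 0.035). The V-ATPase subunit Atp6v0b rose (0.54 ± 0.12, adjusted p = 0.046).

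Across clusters, 267 genes were called in at least 1, of which 201 in 1 cluster and 20 in 3 or more, and 24 of the 25 genes called over all cells were among them. Gpr65 was called in all 9 clusters where it could be tested. Ifitm3 was called in 8 of 10 clusters and had a log2 fold change below 0 in all 10, from -2.07 to -0.80. Ifitm1 was called in 7, from -4.09 to -1.35 over all 10. Both are leading genes of cluster 2, and Ifitm1 also of cluster 9. Nupr1 and Lgals3 were called in 5 clusters each and were higher in all clusters tested (1.07 to 2.35 and 0.35 to 1.46). Serpinb1a was called in clusters 1, 2, 3 and 4 and had log2 fold changes of -1.77 to -0.29 over 10. Nkg7, which did not pass over all cells, was called in 3 clusters, among them cluster 3, led by mitotic genes such as Mki67, at 38.7 and 51.1 against 6.93 and 12.7 CPM (2.19 ± 0.30, adjusted p = 0.018). In cluster 4 Ecm1 fell (-1.63 ± 0.20, adjusted p = 7.6e-06) and Lta rose (1.30 ± 0.22, adjusted p = 0.0040), and in cluster 8 Dgat1, which completes triglyceride synthesis, fell (-1.31 ± 0.25, adjusted p = 0.0079). The single call in cluster 9 was Tpt1, an abundant growth-related protein, at 6443 and 6419 against 9403 and 10023 CPM (-0.59 ± 0.12, adjusted p = 0.037).

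**Figure D5:**
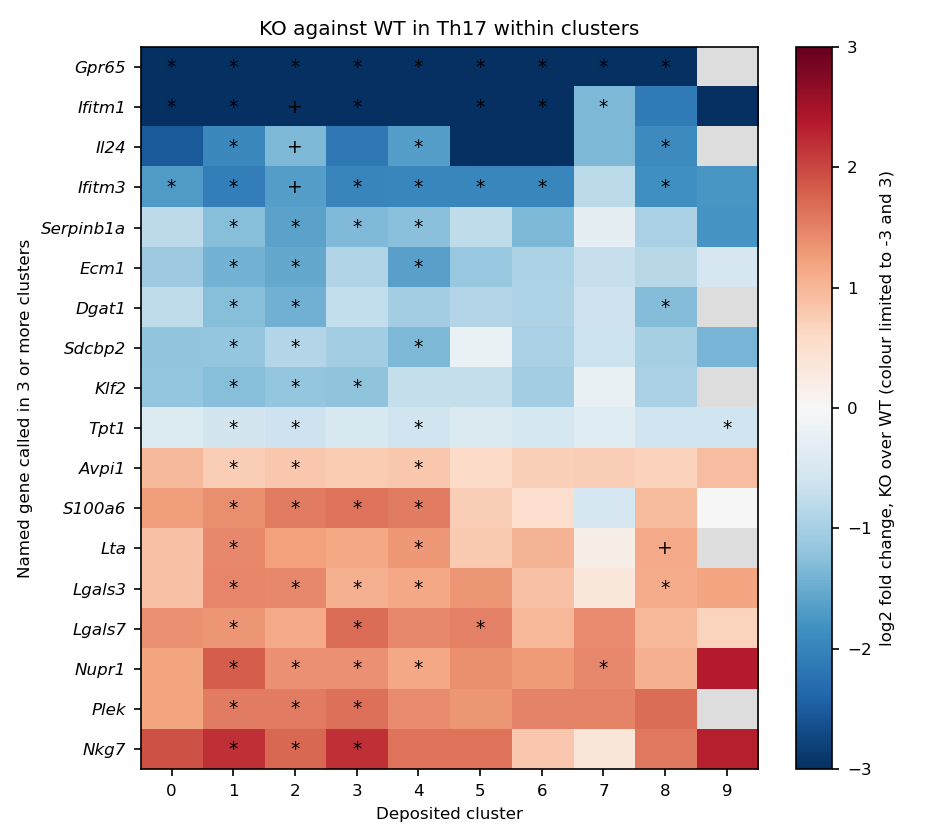
Log2 fold change of KO over WT Th17 within each cluster (columns) for named genes called in 3 or more clusters (rows), with colours limited to -3 to 3. A star marks a call, a plus a call of a leading gene of that cluster, and grey a gene not tested there; Gpr65 and Ifitm3 are lower in every cluster where they were tested, and Ifitm1 in all 10.

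Whether the KO effect in a cluster differed from that in the remaining cells of the same libraries was tested directly. The effect differed for 39 genes in cluster 7 (0.507%), 39 in cluster 2 (0.371%), 21 in cluster 5 (0.315%), 4 in cluster 6 (0.0542%) and 2 in cluster 8 (0.0305%; limma on within-library differences, adjusted p under 0.05). No gene passed in clusters 0, 1, 3, 4 and 9 (0% in each), where 633, 481, 698, 563 and 181 genes had an unadjusted p under 0.05 and cells thinned to equal depth gave 2, 2, 0, 2 and 0 calls. The larger count of calls within cluster 1 was thus not accompanied by a called difference from the other cells.

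Cluster 7 was led by genes of gamma-delta T cells and of cytotoxicity such as Klrd1, Trdc, Gzmc and Tcrg-C4. Ifitm1 was at 239 and 235 CPM in KO and at 567 and 639 CPM in WT cells of this cluster, a log2 fold change of -1.35. This was 2.18 ± 0.11 less negative than in the remaining cells (SE, adjusted p = 2.7e-12, limma). Ifitm3 differed in the same direction by 1.18. S100a6 was at 555 and 622 against 786 and 889 CPM, a log2 fold change of -0.51 that lay 1.80 ± 0.13 below that of the remaining cells (adjusted p = 4.9e-09). Nek6 was nearly level in cluster 7, at 37.3 and 35.6 against 37.5 and 36.8 CPM, a difference from the remaining cells of -1.38. The differences from the remaining cells were also negative for Lgals3 (-0.86), AA467197 (-1.04) and Ifng (-3.65), and positive for Il7r (1.16). Within the cluster itself the log2 fold changes of these genes were 0.35, -0.04, -0.29 and -0.12, in that order. Ifng overlapped there, at 27.3 and 46.1 against 28.5 and 53.7 CPM. Over all cells it was near the floor, at 1.33 and 2.11 against 0.597 and 1.22 CPM. Within the cluster, Fcer1g, a signaling chain of innate receptors, fell from 93.0 and 116.8 to 32.3 and 31.6 CPM (-1.72 ± 0.23, adjusted p = 0.00012). The count of 39 in cluster 7 was 13 and 15 without KO library 1 or 2 and 13 and 36 without WT library 1 or 2.

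In cluster 2 the cysteine protease inhibitor Ctla2a was at 545 and 487 against 869 and 980 CPM, with an effect 0.48 ± 0.05 log2 units more negative than in the remaining cells (difference -0.48, adjusted p = 1.2e-05). The differences from the remaining cells were also negative for the metallothioneins Mt1 (-0.79) and Mt2 (-0.98) and the co-stimulatory receptor Tnfrsf9 (-0.66), and positive for S100a6 (0.47). Within cluster 2 itself Mt1 and Mt2 were nearly level, with log2 fold changes of 0.09 and -0.06 and overlapping libraries. Mt1 was at 178 and 386 against 243 and 285 CPM. Tnfrsf9 had a log2 fold change of -0.79 there and S100a6 of 1.55. The cluster 2 count was 59, 28, 7 and 13 without KO library 1, KO library 2, WT library 1 and WT library 2. In cluster 5, led by metallothionein genes, the differences from the remaining cells were negative for Actb (-0.38) and Hnrnpab (-1.04). Within cluster 5 itself their log2 fold changes were -0.36 and -0.65. KO library 2 gave 714 of the 1377 Th17 cells of cluster 5. The count of differences called in cluster 5 was lower in each fit that left out a single Th17 library.

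The KO effect in Th17 was finally set against that in Th22 cells, cultured with FICZ and more IL-6. No gene passed the test of the difference (0% of 13412; edgeR), 566 had an unadjusted p under 0.05 (4.22%), and DESeq2 called 12. Limma-voom with libraries of the same genotype and number as a random block (consensus correlation 0.659) called 178. The edgeR fit had no such block, and the labels do not say whether Th17 and Th22 libraries of the same number share a mouse. Il17a and Il24 had differences of 0.02 and -0.03 log2 units between the conditions. Ifitm1 had a difference of -0.96 ± 0.19, Klf2 of -0.80 and Serpinb1a of -0.69, the Th17 effect being the more negative in each, and none passed (adjusted p = 0.90 for each).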

How the data were processed

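Cells were profiled with the 10x Genomics Chromium 3' v3 kit, per the labels' protocols. The submitters' processing notes list Cell Ranger 5.0.1, Seurat and the mouse build mm10 without their role. The deposited matrix holds UMI counts per gene symbol and cell, not normalized, for 16649 genes, and the deposited cell table gives each cell's library, cluster, mitochondrial percent and phase scores. How the authors made the clusters, the percent and the scores is not stated. Deposited cells had at least 201 genes, at most 9999 UMIs and at most 9.99 percent mitochondrial UMIs. Cells with 500 or more genes were kept here. Doublets were not removed, and an alternative left out the 8% of cells with the most UMIs.

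Counts were summed per library and tested with edgeR 4.0.16 (glmQLFit robust, glmQLFTest, TMM, filterByExpr, Benjamini-Hochberg at 0.05) in R 4.3.3, over all 8 libraries with 4 group means and 4 residual degrees of freedom. Within clusters the same test was run, with at least 50 cells per library. Differences between a cluster and the remaining cells were tested with limma 3.58.1 on within-library log2 CPM differences with a prior count of 2. Scripts were tested on simulated data. Marker levels and list sums are CPM without TMM scaling. Library agreement used log2 CPM with a pseudocount of 0.5. Symbols matched the GENCODE M21 annotation of mm10 for 13241 of 13412 genes (98.7%), and promoters are from RefSeq. Intervals are exact binomial at 95% and cover counting error only.

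The gene lists and the rules for naming genes were chosen with earlier results of these data known. Named were all called genes, up to 4 members of smallest p per described list, up to 5 called genes per cluster and a fixed set of Th17 genes. Unnamed gene models were counted only, and some genes that the rule takes are not reported here. Other genes named within clusters, and those separating the KO libraries, were chosen after their values were seen. Alternatives were DESeq2 1.42.0, RLE factors, no filter, thinning to 1500 UMIs, fewer cells or libraries, covariates and blocks.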

Additional observations from a re-analysis of the deposited data

How the results depend on the processing

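All 25 genes called over all cells kept their sign in all 21 alternatives, which reuse the same libraries. The count of 25 became 206 with DESeq2 (1561 genes without an adjusted p), 42 with limma-voom and a random block, 42 without a filter on low counts, 16 with the 4 Th17 libraries alone and 4 with median UMIs per cell as a covariate, and ranged from 3 to 54 when 1 library was left out. It stayed within 1.5 times with RLE factors (24), all deposited cells (23), thinned cells (24), cells with low phase scores (30), without cluster 7 (28) and without the cells with most UMIs (19).

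The labels do not say that libraries of the same number share a mouse or day. With a replicate block the count was 9, and the number of genes whose effect differed between Th17 and Th22 stayed 0. Deviations of same-numbered KO and WT libraries from their group means correlated at -0.505 over genes. A crossed replicate block, chosen after seeing the data, gave 665 calls over all cells and 0 for the difference between conditions. Within clusters the replicate block gave 5 calls in cluster 6 and 4 in cluster 9, and for the difference from the remaining cells 2 in cluster 1 and 1 in cluster 4. It moved no other cluster's count by over 1.5 times.

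The test between Th17 and Th22 gave 12 with DESeq2, 178 with limma-voom, and 0 (lowest and highest) with 1 library left out. Calls within clusters summed to 377 and ranged from 55 to 287 with 1 library left out: 1 to 7 in cluster 0, 24 to 184 in cluster 1, 9 to 28 in cluster 2, 3 to 10 in cluster 3, 3 to 83 in cluster 4, 2 to 24 in cluster 5, 2 to 5 in cluster 6, 2 to 11 in cluster 7, 2 to 39 in cluster 8 and 0 to 3 in cluster 9. With only the Th17 libraries they were 2, 113, 5 and 14 in clusters 0, 2, 6 and 8, and thinning gave 16 in cluster 0. Calls for the difference from the remaining cells summed to 105 and ranged from 28 to 100: 0 in cluster 0, 0 to 7 in cluster 1, 7 to 59 in cluster 2, 0 to 1 in cluster 3, 0 to 12 in cluster 4, 2 to 17 in cluster 5, 4 to 6 in cluster 6, 13 to 36 in cluster 7, 0 to 1 in cluster 8 and 0 to 2 in cluster 9. Thinning gave 2, 2, 24, 2 and 9 in clusters 0, 1, 2, 4 and 5, and a prior count of 0.5 gave 1 in cluster 1 and 0 in cluster 8.

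Log2 fold changes that reversed were those of genes that had not passed: Il22 (0.0813 thinned, 0.117 at low phase scores, and from -0.359 to 0.142 with 1 library left out), Il21 (-0.165 to 0.325 with 1 library left out), Csf2 (-0.205 to 1.09 with 1 library left out) and Ccr6 (-0.142 with the UMI covariate). Fewer samples or genes tested enter some of these fits, and beyond that the cause was not tested. With 2 libraries a side, and 1 in the fits that leave a library out, where the lone sample is assumed to vary like the other groups, differences under about the spread of the KO libraries are not resolved.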
